A study of Vitis vinifera with 60 samples.

Results

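The 5 enzymes that carry the flavonoid pathway from chalcone to anthocyanidin were followed through berry development by 9 genes of the 29287 entries in the deposited table. They were chosen by locus tag, and the list that chose them also gave their enzyme names: chalcone synthase (CHS) for VIT_14s0068g00930, VIT_14s0068g00920 and VIT_05s0136g00260, chalcone isomerase (CHI) for VIT_13s0067g03820 and VIT_13s0067g02870, flavanone 3-hydroxylase (F3H) for VIT_04s0023g03370 and VIT_18s0001g14310, dihydroflavonol reductase (DFR) for VIT_18s0001g12800, and leucoanthocyanidin dioxygenase (LDOX) for VIT_02s0025g04720. Each tag had a row of its own and 0 of the 9 shared a joined row. None of the tags matched the RefSeq gene table at hand (0 matches), so the enzyme names were not checked against it and no sequence is shown.

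Chalcone synthase joins a coumaroyl-CoA with malonyl-CoA to make the first flavonoid of the pathway, chalcone isomerase closes its ring to a flavanone, and flavanone 3-hydroxylase turns that into a dihydroflavonol. Dihydroflavonol reductase and leucoanthocyanidin dioxygenase then lead to the anthocyanidins. Flavonols branch off at the dihydroflavonols, and proanthocyanidins, the berry tannins, at the products of the last enzymes. Grape berries are known to make proanthocyanidins mainly while young and green, and red-skinned berries to make anthocyanins from the onset of ripening on, so these enzymes serve both phases.

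The samples were pericarp, the berry without its seeds, of the red-skinned cultivars Sangiovese, Barbera, Negroamaro (Negro amaro in the cultivar label), Refosco and Primitivo, grown together in a vineyard at Conegliano in Italy and sampled in a single season. Berries were taken pea-sized, at the point of touching within the bunch, soft, and ripe for harvest, in 3 biological replicates of every cultivar at every stage, which made 60 libraries. The table gives 1 FPKM value (fragments per kilobase of transcript, scaled to the fragments of the library) per cultivar and stage, 20 columns in all, each the authors' mean, so the spread of replicate berries and the depth behind a value are unknown. Each SD below is the spread over 5 cultivars. The limma tests of a stage change use the variation left after stage and cultivar means, pooled over all stages and moderated over entries. A gene therefore has the same SE at every step, which does not follow the spread of the cultivars at that step. Comparisons of cultivars take the stages as repeats. Skin and flesh were ground together, so fewer cells of a type and less RNA per cell cannot be told apart. Column totals ran from 787405 to 1096120 FPKM, and the 9 genes took 0.0428% to 0.400% of them. In a comparison across the 18207 entries with a mean of at least 1 FPKM, after stage means were taken out, 17 of the 20 columns were closest to the other stages of their own cultivar. The harvest column labelled Negroamaro was closest to Primitivo (r = 0.45 across entries, against -0.10 with Negroamaro) and the one labelled Primitivo to Negroamaro (r = 0.44, against -0.09 with Primitivo), while pea-sized Barbera was about as close to Refosco (0.14) as to Barbera (0.13). Entries are not independent replicates, and values with these harvest columns exchanged or left out stand beside the harvest changes, the ratios of copies and the cultivar comparisons. Exchanging them leaves every stage mean and SD as it is.

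Most of the pathway fell between pea-sized and touching berries and rose as berries softened. CHI VIT_13s0067g02870 and LDOX VIT_02s0025g04720 fell again at harvest, about as large a share as among all entries. All 9 genes passed the filter for testing, a mean of at least 1 FPKM. In touching against pea-sized berries 7 of the 9 genes fell and 0 rose, where 10.5% of all entries tested fell and 12.4% rose. The 5 touching values lay below the 5 pea-sized ones without overlap for 5 of the 9 genes, as for 8.93% of all entries. In soft against touching berries 8 of the 9 rose and 0 fell, where 13.9% of all entries rose and 41.5% fell. Soft values lay above touching ones without overlap for 2 of the 9, as for 7.89% of all entries. In harvested against soft berries 2 of the 9 fell, against 24.5% of all entries, and 0 rose, against 14.9%. With the doubtful harvest columns exchanged 2 fell and 0 rose, where 4827 of all 18207 entries fell and 2907 rose. With them left out 2 fell and 1 rose, where 4041 of all 18256 entries fell and 2700 rose. The genes with an unadjusted p under 0.05 numbered 7, 8 and 2 at the 3 steps, the same numbers as those that passed. A gene counted as risen or fallen at a limma adjusted p under 0.05 on log2(FPKM + 1), a scale that understates the change of low values. The median log2 change of the 9 genes was -1.50, 1.72 and -0.77 at the 3 steps, beside 0.03, -0.26 and -0.08 over all entries tested. The median over all entries at softening moved between -0.45 and 0.07 with the scaling of the columns, while 8 of the 9 genes rose under each scaling except equal total FPKM, under which 7 did. The share of all passing entries that were higher at softening was 25.04% as deposited and 13.7% to 54.9% over the scalings. It was 54.1% as deposited and 25.6% to 60.4% over the scalings at the first step, and 37.8% as deposited and 37.8% to 65.9% over the scalings at the last. Leaving out a cultivar changed the first counts. At the first step 3 of the 9 fell without Refosco or without Primitivo and 4 without Barbera. Over all entries 1646 of 18167, 1378 of 18250 and 1170 of 18208 fell in these fits, in that order, against 1912 of 18207. At softening 6 of the 9 rose without Barbera, Refosco or Primitivo. Over all entries 2170 of 18208, 2081 of 18167 and 2337 of 18250 then rose, against 2526 of 18207. At harvest 1 of the 9 fell without Refosco, where 3393 of 18167 entries fell, against 4468 of 18207.

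**Figure D1:**
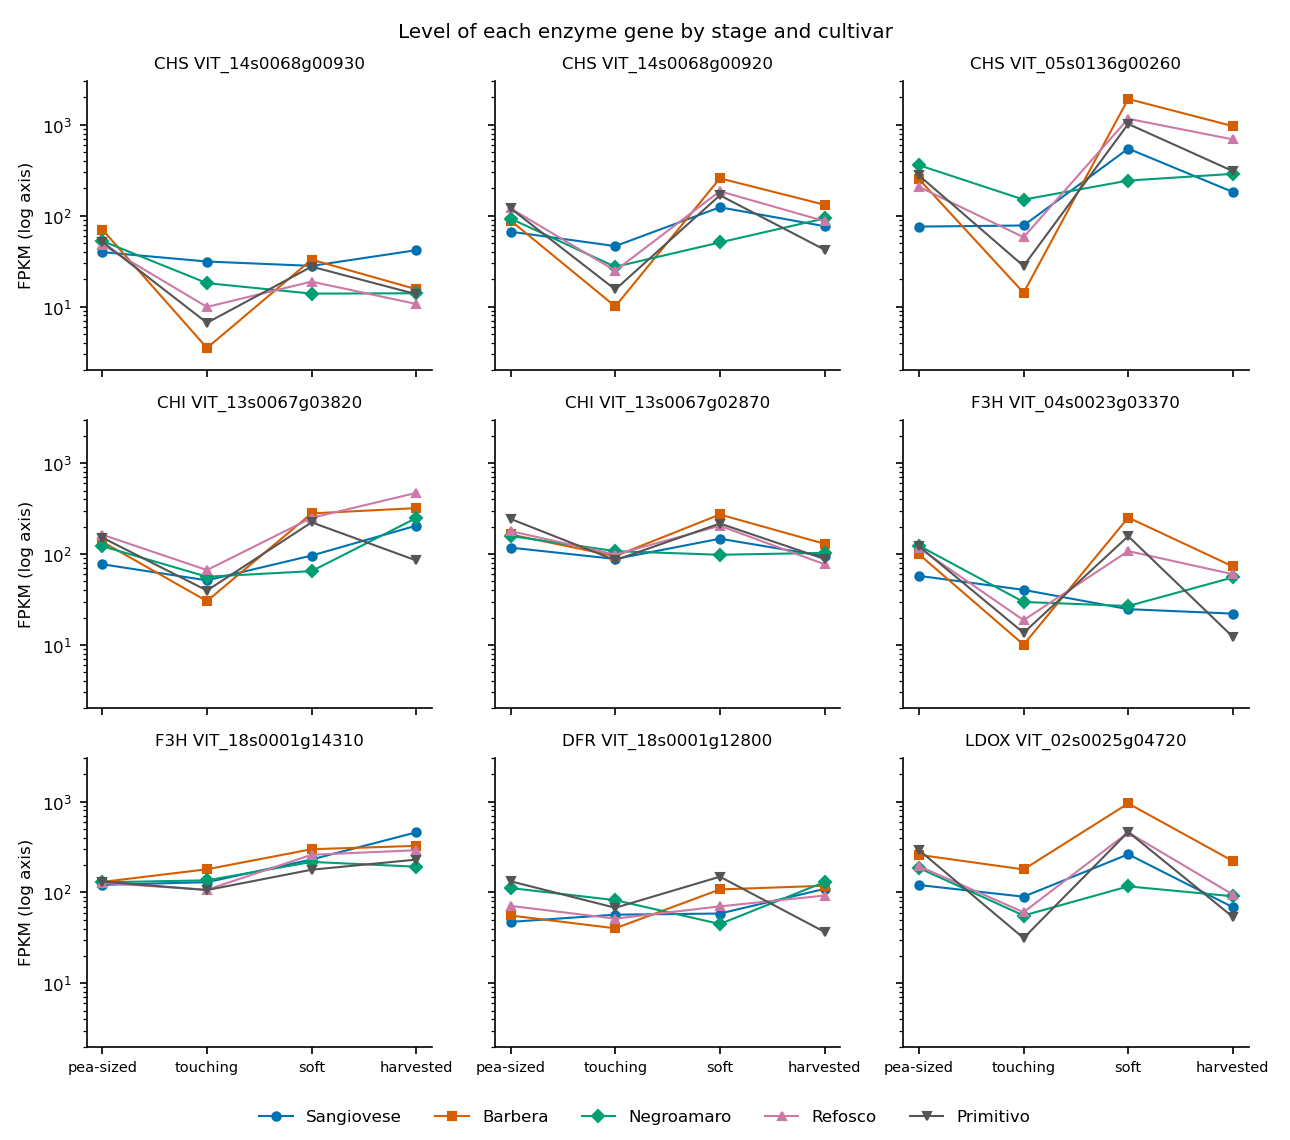
Level of each of the 9 genes at the 4 stages, in FPKM on a log axis, with 1 line and marker per cultivar and each point the authors' mean. CHS VIT_05s0136g00260 spans 14.2 to 1926 FPKM in Barbera, whereas F3H VIT_18s0001g14310 lies between 121 and 132 FPKM in all 5 cultivars at the pea-sized stage.

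Among the CHS genes, VIT_05s0136g00260 was the most abundant in 20 of 20 columns and had the largest mean change of the 9 genes at softening. Its pea-sized level was 75.9 FPKM in Sangiovese, 253 in Barbera, 359.6 in Negroamaro, 208 in Refosco and 278 in Primitivo. In touching berries it stood at 78.1 FPKM in Sangiovese, 14.2 in Barbera, 150.4 in Negroamaro, 58.0 in Refosco and 28.0 in Primitivo, so that Sangiovese alone was not below its pea-sized value. The mean over cultivars fell to 65.7 ± 53.5 FPKM in touching berries, against 235 ± 105 FPKM in pea-sized ones (SD, n = 5 each), a log2 change of -2.07 (SE 0.67, adjusted p = 0.0389 in limma), lower in 4 of 5 cultivars. This adjusted p was the highest of the 7 that passed. It ranged from 0.0232 to 0.166 over 17 alternatives and missed the threshold in 4 of them, without Barbera (0.125), Refosco (0.0975) or Primitivo (0.166) and with no filter on low values (0.0508).

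VIT_05s0136g00260 rose at softening in 5 of 5 cultivars, to 547 FPKM in Sangiovese, 1926 in Barbera, 244 in Negroamaro, 1167 in Refosco and 1023 in Primitivo, and soft and touching berries did not overlap. Its log2 change was 3.98 (SE 0.67, adjusted p = 0.000174 in limma), with 981 ± 644 FPKM in soft and 65.7 ± 53.5 FPKM in touching berries. The size of the rise differed widely, from 136-fold in Barbera, 36.6-fold in Primitivo, 20.1-fold in Refosco and 7.01-fold in Sangiovese to 1.62-fold in Negroamaro. With 1 value per cultivar and stage, the difference between cultivars in this rise could not be tested. Harvested berries held 182 FPKM in Sangiovese, 969 in Barbera, 289 in Negroamaro, 691 in Refosco and 309.7 in Primitivo, and the change from soft berries did not pass the test (log2 -0.96, SE 0.67, limma adjusted p = 0.281), also with the doubtful columns exchanged (adjusted p = 0.270) or left out (0.621). When soft and harvested berries were set against pea-sized and touching ones, it was higher by 2.47 (SE 0.48, adjusted p = 0.000267 in limma) on the log2 scale, the largest such value of the 9 genes.

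The other CHS genes carry adjacent tag numbers, VIT_14s0068g00920 and VIT_14s0068g00930, and stood lower. VIT_14s0068g00920 had 66.7 FPKM in Sangiovese, 88.4 in Barbera, 92.7 in Negroamaro, 120.1 in Refosco and 120.3 in Primitivo at the pea-sized stage and 46.3 FPKM in Sangiovese, 10.03 in Barbera, 27.4 in Negroamaro, 24.9 in Refosco and 15.4 in Primitivo at touching. Touching berries lay below pea-sized ones without overlap, and it fell by a log2 change of -2.07 (SE 0.44, adjusted p = 0.00382 in limma). Soft berries reached 124 FPKM in Sangiovese, 258 in Barbera, 50.8 in Negroamaro, 186 in Refosco and 168 in Primitivo, and harvested ones had 76.6 FPKM in Sangiovese, 132 in Barbera, 93.2 in Negroamaro, 87.2 in Refosco and 42.3 in Primitivo. It rose at softening by 2.61 (SE 0.44, adjusted p = 0.000168 in limma), again without overlap and in 5 of 5 cultivars, and its harvest change did not pass the test (log2 -0.77, SE 0.44, limma adjusted p = 0.184). With the doubtful columns exchanged that change had an adjusted p of 0.153 and with them left out 0.368. Exchanged, it was lower at harvest in 5 of 5 cultivars, against 4 of 5 as labelled, since Negroamaro stood at 0.832 times its soft level, against 1.83 times as labelled.

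VIT_14s0068g00930 fell with them, and its later rise lay at the threshold. It had 39.7 FPKM in Sangiovese, 70.4 in Barbera, 52.7 in Negroamaro, 48.0 in Refosco and 51.6 in Primitivo in pea-sized berries and 31.3 FPKM in Sangiovese, 3.502 in Barbera, 18.1 in Negroamaro, 9.91 in Refosco and 6.63 in Primitivo in touching ones, without overlap, a log2 change of -2.15 (SE 0.42, adjusted p = 0.00203 in limma). Soft berries held 28.0 FPKM in Sangiovese, 32.9 in Barbera, 13.9 in Negroamaro, 18.8 in Refosco and 27.5 in Primitivo, above touching berries in Barbera, Refosco and Primitivo and below them in Sangiovese and Negroamaro. Its rise at softening, 1.03 (SE 0.42, adjusted p = 0.0474 in limma), had an adjusted p that ranged from 0.0114 to 0.243 over 17 alternatives and was over 0.05 in 8 of them, among them those without Barbera (0.243), Primitivo (0.197) or Refosco (0.106). At harvest it stood at 41.7 FPKM in Sangiovese, 15.5 in Barbera, 14.0 in Negroamaro, 10.7 in Refosco and 13.7 in Primitivo, with no change past the test (log2 -0.44, SE 0.42, limma adjusted p = 0.435), nor with the doubtful columns exchanged (adjusted p = 0.423) or left out (0.694). In 4 of 5 cultivars its highest stage was the pea-sized one, where VIT_05s0136g00260 and VIT_14s0068g00920 each peaked in soft berries in 4 of 5. The whole of ripening, here the mean of soft and harvested berries against that of pea-sized and touching ones, gave -0.26 (SE 0.29, adjusted p = 0.429 in limma). VIT_14s0068g00930 was the only CHS gene of the 3 that did not pass that comparison. In that comparison 4 of the 9 genes were higher and 0 lower, against 23.5% and 51.2% of all entries. A gene higher in it need not be higher in harvested than in pea-sized berries. The share of passing entries that were higher was 31.5% as deposited and 23.0% to 55.8% over the scalings, and 5 genes had an unadjusted p under 0.05. With the doubtful harvest columns exchanged 5 of the 9 were higher, LDOX VIT_02s0025g04720 in addition, and with them left out 5 were higher, DFR VIT_18s0001g12800 in addition. Over all entries 4432 of 18207 were higher with the columns exchanged and 4334 of 18256 with them left out.

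The CHS copies changed in their shares as well. VIT_05s0136g00260 held 58.3% ± 10.9 of the summed CHS FPKM in pea-sized, 59.3% ± 10.9 in touching, 82.6% ± 3.80 in soft and 78.5% ± 11.6 in harvested berries (SD, n = 5), while VIT_14s0068g00930 held 14.7% ± 4.69, 13.2% ± 4.19, 2.73% ± 1.45 and 4.78% ± 5.21 at the same stages. The mean log2 ratio of VIT_05s0136g00260 to VIT_14s0068g00930 was 2.00, 2.08, 5.03 and 4.51 in stage order. Permuting the stages inside each cultivar, an exact permutation test, found this ratio to differ between stages (p = 0.000356, adjusted over the 5 ratios of copies 0.000889), and likewise the ratios of VIT_14s0068g00920 to VIT_14s0068g00930 (p = 0.000895, adjusted 0.00149) and of VIT_05s0136g00260 to VIT_14s0068g00920 (p = 0.00683, adjusted 0.00854). Of these, the ratio of VIT_05s0136g00260 to VIT_14s0068g00920 missed the threshold without Refosco (adjusted exact permutation p = 0.0553) or without Primitivo (0.0566). With the doubtful harvest columns exchanged the adjusted exact permutation p of these ratios, in the same order, was 0.000593, 0.000593 and 0.00290, and with them left out 0.00237, 0.00193 and 0.00640. Adjacent copies can be near-identical and share reads, so the division between VIT_14s0068g00920 and VIT_14s0068g00930 is uncertain.

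**Figure D2:**
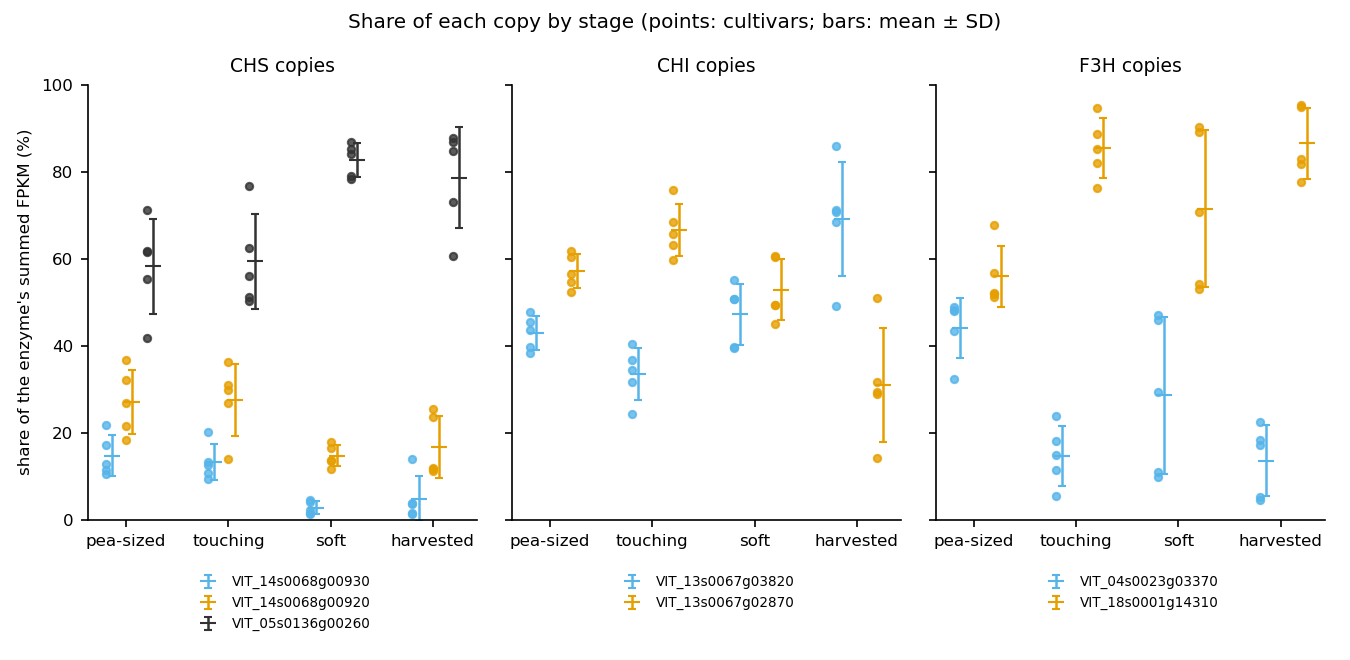
Share of each copy in the summed FPKM of its enzyme, in percent, at the 4 stages; points are the 5 cultivars and bars the mean ± SD. CHS VIT_05s0136g00260 moves up between touching and soft berries, and the mean share of CHI VIT_13s0067g03820 passes that of VIT_13s0067g02870 at harvest, at 69.1% ± 13.2; VIT_13s0067g03820 is the higher copy in 3 of 5 cultivars in soft and 4 of 5 in harvested berries.

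The CHI genes changed in their ratio to each other. VIT_13s0067g03820 had 77.3 FPKM in Sangiovese, 137 in Barbera, 122 in Negroamaro, 163 in Refosco and 152 in Primitivo in pea-sized berries and 51.4 FPKM in Sangiovese, 30.4 in Barbera, 56.3 in Negroamaro, 66.6 in Refosco and 39.7 in Primitivo in touching ones, which lay below without overlap (log2 -1.40, SE 0.40, limma adjusted p = 0.0202). It rose at softening in 5 of 5 cultivars (log2 1.72, SE 0.40, limma adjusted p = 0.00201), to 96.3 FPKM in Sangiovese, 280.4 in Barbera, 64.9 in Negroamaro, 250.4 in Refosco and 224 in Primitivo. Negroamaro moved least, 1.15-fold, and Barbera most, 9.23-fold. Harvested berries then had 206 FPKM in Sangiovese, 321 in Barbera, 249 in Negroamaro, 471 in Refosco and 85.1 in Primitivo, so that 4 of 5 cultivars had their highest level of this gene at harvest. The column labelled Primitivo was the exception. With the harvest columns of Negroamaro and Primitivo exchanged, all 5 cultivars had more of this gene in harvested than in soft berries. Harvest was then still its highest stage in 4 of 5, since Negroamaro had 85.1 FPKM at harvest and 122 in pea-sized berries. The harvest change itself did not pass the test as labelled (log2 0.55, SE 0.40, limma adjusted p = 0.299), and its adjusted p was 0.0415 without Primitivo and ranged from 0.0415 to 0.748 over 17 alternatives, with 0.228 for the columns exchanged and 0.0803 for them left out. The fall of VIT_13s0067g03820 at the first step had an adjusted p of 0.0882 without Barbera and 0.0597 without Refosco.

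VIT_13s0067g02870 was the CHI gene with the lower SD over cultivars on the log2 scale at all 4 stages, with 118 FPKM in Sangiovese, 164 in Barbera, 158 in Negroamaro, 179 in Refosco and 244 in Primitivo in pea-sized berries and 88.3 FPKM in Sangiovese, 95.1 in Barbera, 108 in Negroamaro, 98.7 in Refosco and 85.7 in Primitivo in touching ones. This fall was modest in size but without overlap (log2 -0.82, SE 0.22, limma adjusted p = 0.0138, with an adjusted p of 0.0841 without Primitivo). Soft berries had 148 FPKM in Sangiovese, 273 in Barbera, 98.3 in Negroamaro, 205 in Refosco and 217 in Primitivo, higher than touching berries in 4 of 5 cultivars (log2 0.90, SE 0.22, limma adjusted p = 0.00268). At harvest it went back to 94.8 FPKM in Sangiovese, 129.7 in Barbera, 103 in Negroamaro, 77.2 in Refosco and 88.4 in Primitivo, lower than soft berries in 4 of 5 cultivars as labelled and in 5 of 5 with the columns exchanged, and it was the only CHI or CHS gene that fell at this step (log2 -0.86, SE 0.22, limma adjusted p = 0.00585, with an adjusted p of 0.0507 without Refosco). Exchanging those doubtful harvest columns gave an adjusted p of 0.00394 and leaving them out 0.0230. The share of VIT_13s0067g03820 in the summed CHI FPKM was 42.9% ± 3.91, 33.5% ± 6.07, 47.1% ± 7.07 and 69.1% ± 13.2 in stage order. The log2 ratio of VIT_13s0067g02870 to VIT_13s0067g03820 was accordingly 0.41, 0.99, 0.17 and -1.24, and it differed between stages (exact permutation p = 0.000118, adjusted 0.000588), also with the harvest columns exchanged (6.03e-05) or left out (0.000241).

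The F3H genes changed in their ratio to each other over the stages. VIT_04s0023g03370 stood at 57.6 FPKM in Sangiovese, 99.5 in Barbera, 124 in Negroamaro, 117 in Refosco and 122 in Primitivo in pea-sized and 40.4 FPKM in Sangiovese, 10.1 in Barbera, 29.7 in Negroamaro, 18.7 in Refosco and 13.6 in Primitivo in touching berries. All touching values lay below all pea-sized ones (log2 -2.27, SE 0.63, limma adjusted p = 0.0185). In soft berries the cultivars separated, with 24.8 FPKM in Sangiovese, 252 in Barbera, 26.8 in Negroamaro, 108 in Refosco and 157 in Primitivo. It was higher by 25.1-fold in Barbera, 11.6-fold in Primitivo and 5.76-fold in Refosco, and stood at 0.903 and 0.613 times the touching level in Negroamaro and Sangiovese. The mean change passed the test (log2 1.92, SE 0.63, limma adjusted p = 0.0186) but not without Barbera (adjusted p = 0.125), Refosco (0.0813) or Primitivo (0.0734). The first fall too was over the threshold without those cultivars, at 0.0611, 0.0718 and 0.0560. Harvest values were 22.1 FPKM in Sangiovese, 73.1 in Barbera, 55.3 in Negroamaro, 60.04 in Refosco and 12.3 in Primitivo, with no change past the test (log2 -1.06, SE 0.63, limma adjusted p = 0.200), lower than soft berries in 4 of 5 cultivars as labelled and in 5 of 5 with the harvest columns exchanged. The adjusted p of that change was 0.168 with the columns exchanged and 0.456 with them left out.

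VIT_18s0001g14310 varied least between cultivars of the 9 genes in pea-sized berries. It had 121 FPKM in Sangiovese, 131 in Barbera, 129 in Negroamaro, 127 in Refosco and 132 in Primitivo in pea-sized berries and 129.7 FPKM in Sangiovese, 180.0 in Barbera, 136 in Negroamaro, 107 in Refosco and 106 in Primitivo in touching ones, and the change between them did not pass the test (log2 0.01, SE 0.17, limma adjusted p = 0.963). Its SD over cultivars on the log2 scale was 0.0467 in pea-sized berries, at percentile 1.64 of all entries tested, whose median was 0.226. It rose at softening in 5 of 5 cultivars (log2 0.85, SE 0.17, limma adjusted p = 0.000718), to 231 FPKM in Sangiovese, 299 in Barbera, 217 in Negroamaro, 259.7 in Refosco and 178 in Primitivo, between 1.60-fold in Negroamaro and 2.43-fold in Refosco. Harvested berries held 459 FPKM in Sangiovese, 326 in Barbera, 192 in Negroamaro, 291 in Refosco and 229.8 in Primitivo. That step did not pass the test as deposited (log2 0.29, SE 0.17, limma adjusted p = 0.189), but did at equal total FPKM (adjusted p = 0.0148), at equal totals outside the 10 highest entries (0.0484) and without the doubtful harvest columns (0.0361), with adjusted p from 0.0148 to 0.604 over 17 alternatives. All 5 harvest values lay above all 5 pea-sized ones, as for 16.2% of all entries, and the whole of ripening gave 1.00 (SE 0.12, adjusted p = 2.57e-06 in limma). VIT_18s0001g14310 was above VIT_04s0023g03370 in 20 of 20 columns, with 55.9% ± 6.98, 85.4% ± 6.93, 71.5% ± 18.0 and 86.5% ± 8.13 of the summed F3H FPKM in stage order. Their log2 ratio differed between stages (exact permutation p = 0.0190, adjusted 0.0190), though not past the threshold without Refosco (adjusted p = 0.0776) or Primitivo (0.0815). Exchanging the doubtful columns gave an adjusted exact permutation p of 0.0125 for this ratio and leaving them out 0.0352.

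**Figure D3:**
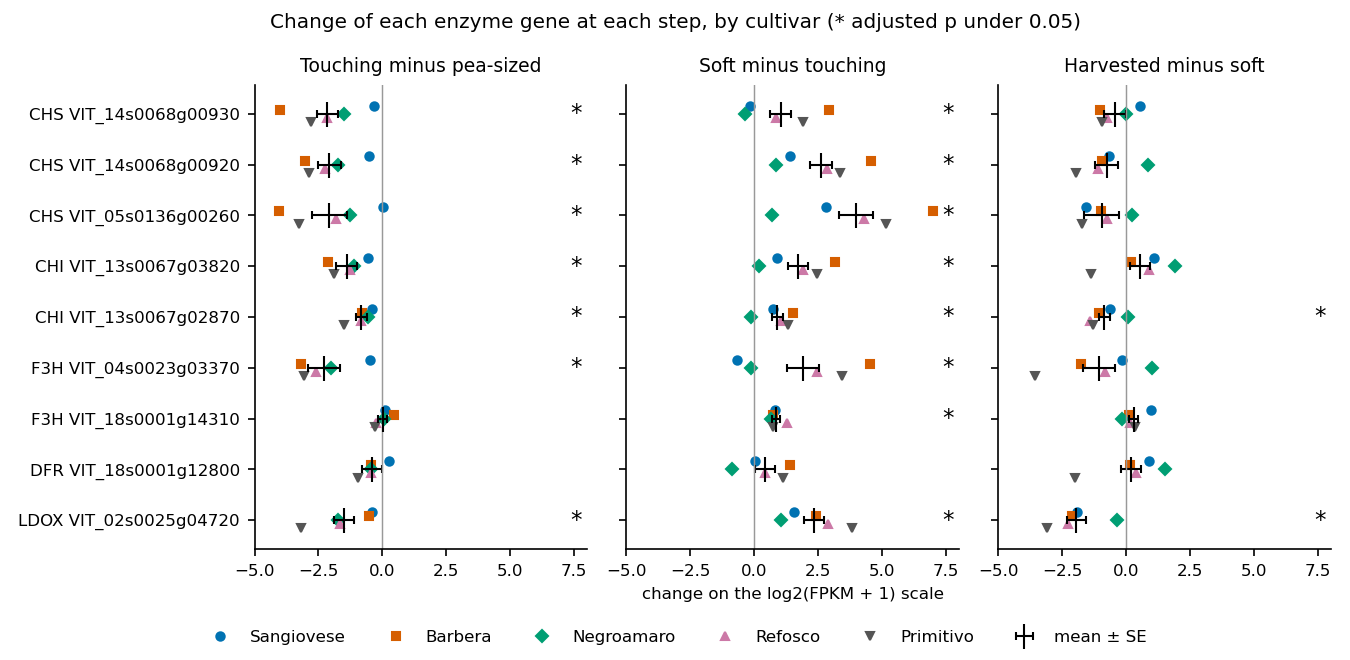
Change of each gene at the 3 steps on the log2(FPKM + 1) scale; coloured markers are cultivars, black ticks with bars the mean ± SE of the fit, and stars mark an adjusted p under 0.05. The black ticks of F3H VIT_18s0001g14310 and DFR VIT_18s0001g12800 carry no star at the first step, and at softening the cultivars of CHS VIT_05s0136g00260 range from 0.69 to 6.99.

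DFR had a single gene in the set, VIT_18s0001g12800, and no stage change of it passed the test. It stood at 47.4 FPKM in Sangiovese, 55.8 in Barbera, 112 in Negroamaro, 71.1 in Refosco and 133 in Primitivo in pea-sized berries and 56.9 FPKM in Sangiovese, 40.3 in Barbera, 82.2 in Negroamaro, 51.5 in Refosco and 67.8 in Primitivo in touching ones (log2 -0.41, SE 0.40, limma adjusted p = 0.501). Soft berries had 58.6 FPKM in Sangiovese, 108 in Barbera, 44.96 in Negroamaro, 70.3 in Refosco and 149 in Primitivo, where Barbera and Primitivo were above their touching values by 2.68-fold and 2.198-fold while Negroamaro was at 0.547 times its own (log2 0.43, SE 0.40, limma adjusted p = 0.383). At harvest the values were 109 FPKM in Sangiovese, 118 in Barbera, 130.0 in Negroamaro, 92.4 in Refosco and 36.8 in Primitivo, higher than in soft berries in 4 of 5 cultivars as labelled and in 3 of 5 with the harvest columns exchanged (log2 0.19, SE 0.40, limma adjusted p = 0.756). Its adjusted p there was 0.699 with them exchanged and 0.138 with them left out. With the same columns left out, its difference over the whole of ripening passed the test (log2 0.56, adjusted p = 0.0337), against 0.32 (SE 0.28, adjusted p = 0.321 in limma) with all columns. DFR was the lowest of the 5 enzymes, by summed FPKM of its genes, in 15 of 20 columns, among them all 10 of pea-sized and soft berries. Its 4-stage means were 83.8 ± 36.9, 59.7 ± 16.0, 86.2 ± 42.3 and 97.4 ± 36.6 FPKM, whereas the CHS genes summed to 385 ± 123, 104 ± 70.7, 1163 ± 725 and 594 ± 349 FPKM. The sums of CHS, CHI and F3H add several genes, against a single gene for DFR or LDOX, so the order depends in part on the number of genes listed.

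LDOX, also with a single gene, VIT_02s0025g04720, fell, rose and fell again. It had 121 FPKM in Sangiovese, 259.5 in Barbera, 186 in Negroamaro, 195 in Refosco and 293 in Primitivo in pea-sized berries and 89.8 FPKM in Sangiovese, 179 in Barbera, 55.7 in Negroamaro, 60.6 in Refosco and 31.5 in Primitivo in touching ones, lower in 5 of 5 cultivars (log2 -1.50, SE 0.38, limma adjusted p = 0.0119, with an adjusted p of 0.0510 without a cultivar term, 0.0505 without Refosco and 0.0555 without Primitivo). Soft berries held 263 FPKM in Sangiovese, 955 in Barbera, 117 in Negroamaro, 458 in Refosco and 463 in Primitivo, higher in 5 of 5 cultivars (log2 2.35, SE 0.38, limma adjusted p = 0.000133). The mean of soft berries was 451 ± 317 FPKM against 83.3 ± 57.5 FPKM in touching ones. Harvested berries went down to 68.8 FPKM in Sangiovese, 222 in Barbera, 90.7 in Negroamaro, 94.8 in Refosco and 53.8 in Primitivo, lower than soft ones in 5 of 5 cultivars (log2 -1.94, SE 0.38, limma adjusted p = 0.00131), and this was the largest fall among the 9 genes at that step. With the doubtful harvest columns exchanged the adjusted p was 0.000729 and with them left out 0.00696. The rise over the whole of ripening missed the threshold (log2 0.62, SE 0.27, limma adjusted p = 0.0502), and 8 of 17 alternatives passed it, with adjusted p from 0.00952 to 0.166. Its highest stage was soft in 4 of 5 cultivars, whereas that of VIT_13s0067g03820, VIT_18s0001g14310 and VIT_18s0001g12800 was harvest in 4 of 5 cultivars each as labelled and in 4, 5 and 3 of 5 with the harvest columns exchanged, a contrast between genes that was not tested.

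Cultivars changed their order from stage to stage. In pea-sized berries Sangiovese was the lowest of the 5 cultivars for 9 of 9 genes, and Primitivo the highest for 5. In touching berries Barbera was lowest for 6 of 9 genes, and Sangiovese and Negroamaro were highest for 3 each. In soft berries Barbera was highest for 8 of 9 and Negroamaro lowest for 7 of 9. At harvest Barbera was highest for 5 and the column labelled Primitivo lowest for 5, which with the doubtful columns exchanged makes Negroamaro lowest for 5. These counts are descriptions, since the genes of a column share its berries. The same counts were not made over all entries, so whether these orders are particular to the 9 genes is unknown.

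**Figure D4:**
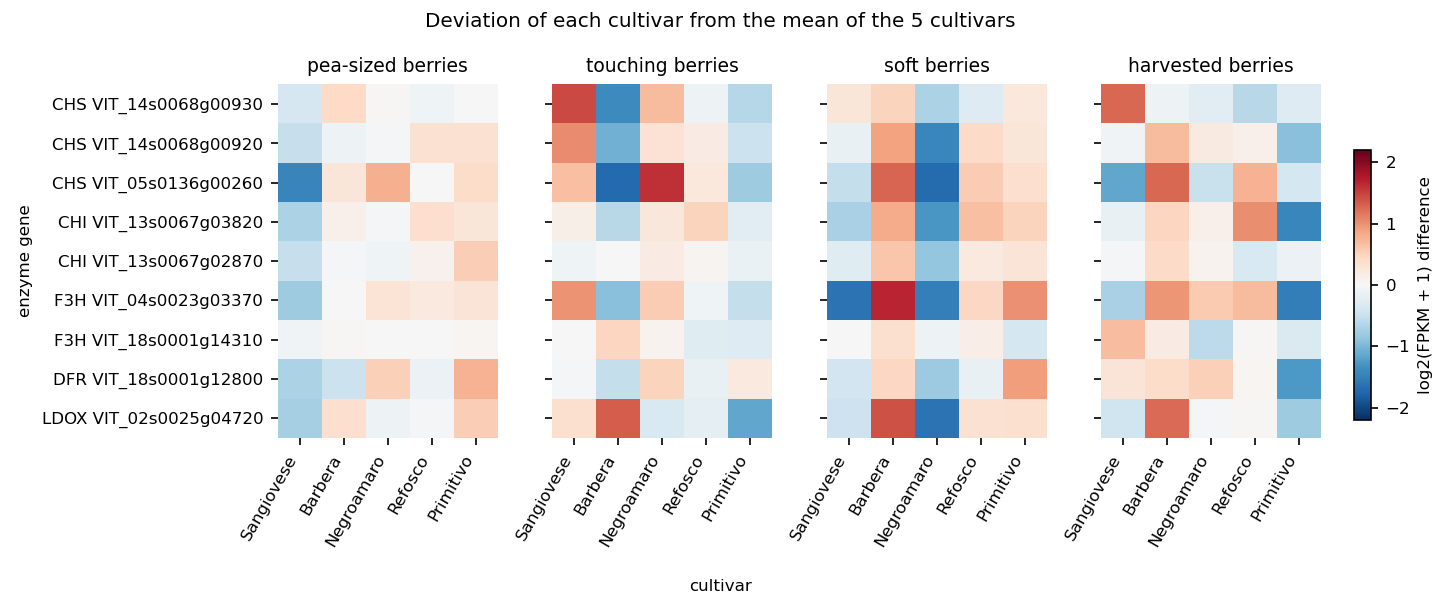
Difference of each cultivar from the mean of the 5 cultivars on the log2(FPKM + 1) scale, by gene (rows), cultivar (columns) and stage (panels); red is above and blue below the mean. Sangiovese is below the mean for 9 of 9 genes in pea-sized berries, and in soft berries Barbera is above it and Negroamaro below it for 9 of 9.

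The cultivars were then compared over all 4 stages together. In a limma F test over cultivars, with the 4 stages as repeats, 0 of the 9 genes passed and 1 had an unadjusted p under 0.05, where 16.3% of all entries passed. That share was 28.7% with the doubtful harvest columns exchanged, when 1 of the 9 passed, and 24.8% with them left out, when 0 did. The gene concerned was LDOX VIT_02s0025g04720 (adjusted p = 0.0736, and 0.0284 with the doubtful harvest columns exchanged or 0.0313 without Primitivo). Each cultivar was also set against the mean of the other 4, where a gene had to differ by a log2 of 1 or more besides passing the test. In Barbera 1 of the 9 passed, higher, against 1.47% of all entries. In Sangiovese, Negroamaro, Refosco and Primitivo 0 passed in limma, against 2.55%, 0.67%, 2.06% and 0.615% of all entries, with an unadjusted p under 0.05 for 1, 0, 1 and 0 of the 9 genes. With the harvest columns exchanged 0 of the 9 still passed in Negroamaro and Primitivo, against 2.98% and 2.70% of all entries, and with them left out 0, against 2.73% and 2.51%. An unadjusted p under 0.05 was then found for 2 genes each with the columns exchanged and 1 each with them left out. Barbera averaged 1.35 above the others on the log2 scale for VIT_02s0025g04720 (SE 0.34, adjusted p = 0.0332 in limma), and it was the highest cultivar in touching, soft and harvested berries. Without Sangiovese the adjusted p was 0.0772 and without Refosco 0.0521, while the doubtful columns exchanged gave 0.0163 and left out 0.0358. These tests speak of the vines sampled in this season, since the stages of a cultivar are not replicate plants.

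The spread between cultivars was wide for most of the genes. The SD over cultivars on the log2 scale was above the median of all entries tested for 8 of 9 genes at every stage, the exceptions being VIT_18s0001g14310 in pea-sized and soft berries and VIT_13s0067g02870 in touching and harvested berries. Its median over the 9 genes was 0.422, 0.774, 0.883 and 0.727 in stage order, against 0.226, 0.237, 0.304 and 0.328 over all entries. The widest was VIT_04s0023g03370 in soft berries, at 1.49, with a 10.2-fold range from Sangiovese to Barbera. The narrowest was VIT_18s0001g14310 in pea-sized berries, with a range of 1.09-fold.

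Across the 20 columns the genes moved together to different degrees. Pearson's r of log2(FPKM + 1) was positive in 34 of 36 pairs, with a median of 0.59, and highest for CHS VIT_14s0068g00920 with CHS VIT_05s0136g00260 (0.90). It was -0.08 for CHS VIT_14s0068g00930 with F3H VIT_18s0001g14310 and 0.04 between the F3H copies. Stage means were then taken out, so that only differences between the cultivars of a stage remained, with any difference in scale between columns. After that r was positive in 36 of 36 pairs, with a median of 0.57, and highest for CHI VIT_13s0067g03820 with F3H VIT_04s0023g03370 (0.88). The columns share libraries between genes, so these values are descriptions. Correlations within other sets of entries were not computed, so whether such values are particular to the 9 genes is unknown. Among 10785 further entries with a mean of at least 10 FPKM, the most like the mean scaled profile of the 9 genes over the 20 columns were VIT_06s0004g02620 (r = 0.92) and VIT_13s0019g04460 (r = 0.88), neither of which the files name. VIT_06s0004g02620 had 35.7 ± 15.1, 7.88 ± 5.42, 60.1 ± 39.3 and 24.6 ± 14.3 FPKM in stage order. The most opposite were VIT_00s0317g00110 (r = -0.83) and the entry that joins VIT_09s0002g00430 and VIT_09s0002g00440 (r = -0.83). VIT_00s0317g00110 had 42.4 ± 8.33, 157 ± 26.0, 54.3 ± 22.7 and 89.6 ± 32.0 FPKM in stage order.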

How the data were processed

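The authors' deposited table holds FPKM values, and its name calls them means, so each column was taken as the mean of 3 libraries. TopHat2 2.0.6 and Cufflinks 2.0.2 are named in the submitters' processing notes without a role. Genome build and annotation: not given in the sources used here. Libraries were non-directional per the labels' protocols, so reads of a gene and an antisense partner cannot be told apart. FPKM gives no read count, so depth is unknown and no counting interval was computed.

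Entries with a mean of at least 1 FPKM (18207) were fitted on log2(FPKM + 1) with limma 3.58.1 in R 4.3.3, with stage and cultivar terms and a mean-variance trend, two-sided. Benjamini-Hochberg adjustment ran over all entries tested. Contrasts of stages, an F test over cultivars and each cultivar against the other 4 came from the same fit. Ratios of copies were compared over stages by exact permutation of stage labels within cultivars (331776 assignments, pseudocount 1). Both tests were tested on simulated data. Python 3.11.15 was used. The genes named are the 9 tags of the rule, and the 2 entries most and 2 least like their mean profile. A list of further pathway tags was not used, because no source here pairs them with names, nor were seed markers. The 17 alternatives changed pseudocount, filter, scaling, robustness, cultivar term, cultivars and harvest columns. Members and lists were chosen with earlier results of these data known.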

Additional observations from a re-analysis of the deposited data

Results flagged for a closer look

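Of 36 groups of 5 cultivars, 1 for each gene and stage, 2 held a value that stood far from the other 4, and chance alone flags about 1 in 20 such groups. CHS VIT_14s0068g00930 in harvested berries was 41.7 FPKM in Sangiovese, while the other 4 cultivars had 10.7 to 15.5 FPKM, a gap of 0.844 of the whole range. LDOX VIT_02s0025g04720 in harvested berries was 222 FPKM in Barbera, while the other 4 had 53.8 to 94.8 FPKM, a gap of 0.756 of the range. Each is the authors' mean of 3 libraries, so whether a single library set it is unknown.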

How the results depend on the processing

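No paired analysis was possible because the columns are means that carry no replicate number, so replicates could not be matched. Stages were matched by cultivar instead, and without the cultivar term 6, 7, 2 and 4 of the 9 genes passed in the 4 stage comparisons, against 7, 8, 2 and 4 with it. Counts of the 9 genes changed by over 1.5 times under 1 alternative that kept all cultivars: with Negroamaro and Primitivo exchanged at harvest, 1 gene differed between cultivars over the 4 stages, against 0 as labelled. With each cultivar left out in turn, the number of genes called ranged from 3 to 7 in touching against pea-sized berries, from 6 to 8 in soft against touching, from 1 to 3 in harvested against soft and from 4 to 5 over the whole of ripening. It ranged from 0 to 1 over cultivars by the F test and from 0 to 1 for 1 cultivar against the others. Over all entries too, fewer passed in either direction at the first 2 steps in each fit without a cultivar. The adjusted exact permutation p of a ratio of copies ranged from 0.00552 to 0.0566 for VIT_05s0136g00260 over VIT_14s0068g00920, from 0.00386 to 0.00940 for VIT_05s0136g00260 over VIT_14s0068g00930, from 0.00307 to 0.0187 for VIT_14s0068g00920 over VIT_14s0068g00930, from 0.00145 to 0.0103 for the CHI genes and from 0.0268 to 0.0815 for the F3H genes. No gene that passed a test changed direction under the alternatives run. Of stage changes that had not passed, 5 changed sign. Sign changes in the cultivar comparisons were not counted. F3H VIT_18s0001g14310 in touching against pea-sized berries was -0.0544 after upper-quartile scaling, -0.0151 after quantile normalization, -0.15 at equal total FPKM, -0.0330 at equal totals outside the 10 highest entries and from -0.0969 to 0.0946 with a cultivar left out. DFR VIT_18s0001g12800 in harvested against soft berries was -0.14 without Negroamaro and 0.73 without Primitivo, the ends of its range. Over the whole of ripening, CHS VIT_14s0068g00930 was 0.0706 after quantile normalization, CHI VIT_13s0067g02870 was -0.12 at equal total FPKM and from -0.0744 without Barbera to 0.165 without Negroamaro, and F3H VIT_04s0023g03370 was from -0.20 without Barbera to 0.57 without Sangiovese; the cause was not tested. The columns are means without depth, so the precision of low values cannot be given.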
